A study of Arabis alpina with 12 samples.

Results

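Buds of the growing zone (V3) and of the dormant zone (V2) of Arabis alpina were compared at the end of a long cold treatment, in 6 of the 12 RNA-seq libraries of the study. The libraries were chosen by their labels alone, 3 for each zone, all harvested on the day the cold ended (0 d). The plants were of the ecotype Pajares, a perennial accession that flowers only after cold. They grew for 8 weeks under a 16 h day at 20 °C with nights of 8 h at 18 °C, then for 12 weeks at 4 °C. Both zones had this treatment, so the labelled difference between the groups is the position of the lateral buds on the plant. The other 6 libraries hold the same zones after 5 days back in long days. They serve here as a second readout and also enter the fit that estimates the spread. The series calls the libraries biological replicates and does not say how many plants or buds each one holds. The p-values measure the spread between these libraries, and nothing in the labels says whether V2 and V3 libraries with the same number come from the same plants.

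A perennial keeps some of its lateral buds dormant while others grow out, and so can flower and still return to vegetative growth. In A. thaliana the branching repressor BRC1 acts in dormant buds through the homeobox factors HB21, HB40 and HB53, which raise NCED3, the rate-limiting enzyme of abscisic acid (ABA) synthesis. ABA then induces protective proteins such as dehydrins and late embryogenesis abundant (LEA) proteins, together with the PP2C phosphatases that damp the signal. Jasmonate, a wound and defence hormone, works through JAZ proteins, which repress the factor MYC2 and are themselves induced by the hormone, as are the enzymes that inactivate it. Buds that grow replicate DNA, divide and make ribosomes.

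The 6 libraries held 12252622 to 22415522 reads assigned to genes. These totals come from the deposited counts and lack any reads of genes wrongly listed at 0. The deposited table gives normalised counts for 19722 genes. It also holds zeros that other values in the files contradict, and 34% of the genes with 20 or more in both partner libraries stood at 0 in V2 replicate 3, against 1.47% to 2.78% in the other 5 libraries. Zeros contradicted by a partner library of 20 or more, or by an FPKM of 1 or more in the same library, were therefore left out, 11748 in all and 6541 of them in V2 replicate 3. FPKM, the authors' length-scaled level, is a separate column given for 3877 genes that the authors list in some comparison. Gene names are those of the A. thaliana homologues in the authors' table, and no genome positions were used. In whole buds, fewer cells of a type and less RNA per cell cannot be told apart.

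Of 16555 genes tested, 826 differed between the zones at 0 d (4.99%; limma with Benjamini-Hochberg adjustment, adjusted p under 0.05). Expression was higher in V3 for 218 genes (1.32%) and lower for 608 (3.67%), and 534 of the 826 differed by at least 2-fold. Changes are given as log2 of V3 over V2, on normalised counts plus 1. The median over all tested genes was -0.03. With the zeros as deposited the split of calls changed, from 26.4% higher in V3 to 52.2%. The groups did not overlap for any called gene, against 32.5% of all tested genes, 19.1% lower and 13.4% higher in V3. Among 2417 tested genes with a named homologue, 92 were called higher (3.81%) and 286 lower (11.8%), with a median of -0.33 and a mean below that of V2 for 65.0%. In this subset the zones did not overlap for 34.1% lower and 15.6% higher. This is the background for the gene lists below, because homologues are given only for genes that the authors list in a comparison.

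**Figure D1:**
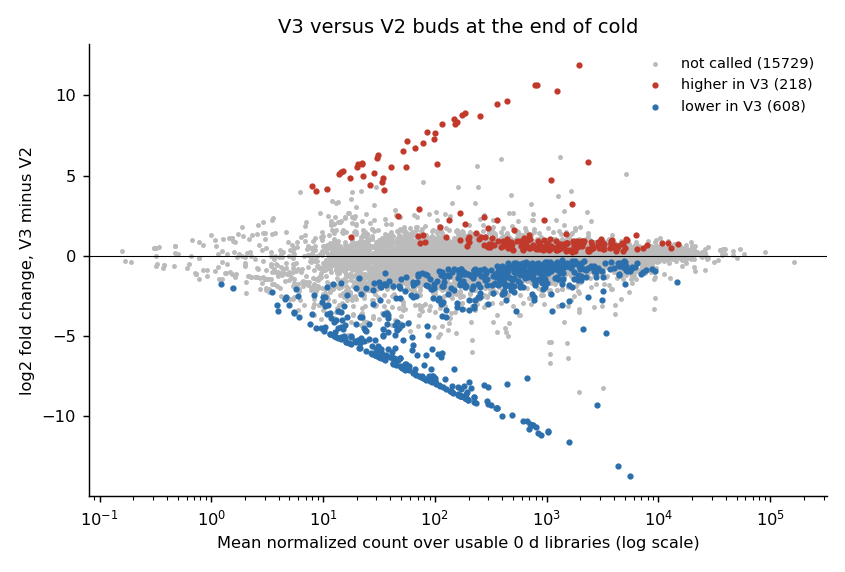
Log2 change of V3 over V2 at 0 d (vertical axis) against the mean normalised count over the usable libraries (horizontal log axis), 1 point per tested gene, with called genes in colour. The 608 genes called lower lie below 0 and outnumber the 218 called higher; the points far from 0 include genes listed at 0 throughout one zone.

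The FPKM column gave a check on the counts that is not wholly separate, since both come from the same reads. Of 464 called genes with FPKM, 408 had FPKM that did not overlap and differed in the same direction, 51 overlapped and 5 were opposite. Non-overlap in FPKM alone was found for 46.5% of the 3877 genes. Agreement was poor where the counts stood at 0 throughout V2: 2 of 18 such genes called higher had FPKM in the same direction without overlap. It was closer where V3 stood at 0, with 55 of 73. Of all 826 calls, 208 had a zone at 0 in every usable library, 34 with V2 at 0 and 174 with V3 at 0. For 117 of these 208 no FPKM was given, so they could not be checked in this way. No left-out zero was held by 547 of the 826 calls. Of the 373 calls with FPKM and neither zone at 0, 351 held the direction in FPKM. Called genes whose change is also seen in FPKM and whose call did not end when any 1 of the 6 libraries was left out numbered 86, of which 16 were higher and 70 lower. This stability is to leave-outs of the limma fit: with the 6 libraries alone 46 of the 80 genes of the set that could be tested were called, with edgeR 29 of 86 and with DESeq2 81 of 86. Several genes of that set are described below, a choice made after their values were seen.

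**Figure D2:**
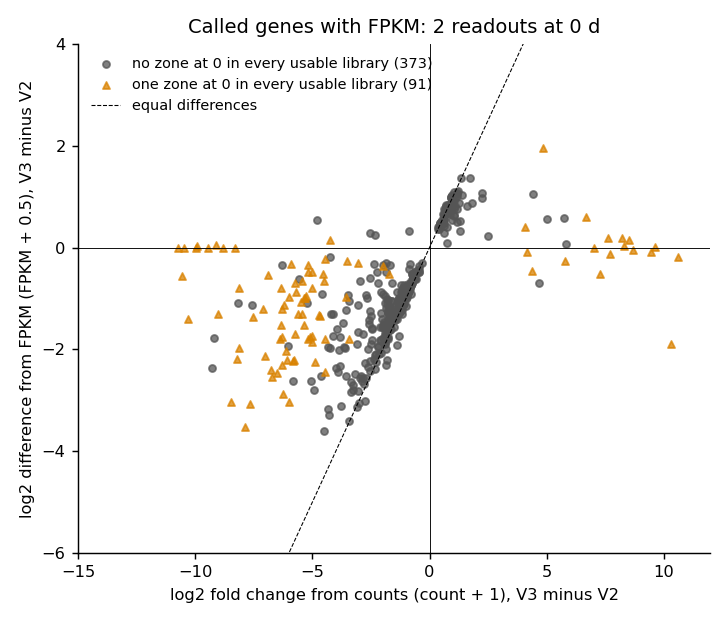
Log2 change of V3 over V2 at 0 d in FPKM (vertical axis, FPKM + 0.5) against that in normalised counts (horizontal axis) for the called genes with FPKM. Most of the 464 points lie in the lower left and upper right, and genes with one zone at 0 spread far along the horizontal axis at small FPKM differences.

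ABA-responsive genes were lower in growing-zone buds. Of 14 tested members of the ABA response list, 6 fell, none rose and all 14 had lower values in V3 without overlap, with a median log2 change of -1.25 against -0.33 for all genes with a homologue. ABI1 (Aa_G43090), a PP2C phosphatase that represses ABA signalling and is induced by it, stood at 1001, 706 and 867 normalised counts in the V2 libraries and at 327, 530 and 370 in the V3 libraries. Every V3 value lay below every V2 value, and ABI1 fell by 1.08 ± 0.18 on the log2 scale (SE, n = 3 and 3, limma adjusted p = 0.00842). Each SE given here and below uses the spread from the limma fit of all 12 libraries. RD22 (Aa_G539240), a dehydration-responsive gene, had 3225, 1932 and 2152 in V2 and 489, 970 and 678 in V3, a change of -1.79 ± 0.33 (limma adjusted p = 0.0146). That call ended without V2 replicate 1 or V3 replicate 1 (adjusted p up to 0.0609). ABF1, a bZIP factor that binds ABA-responsive promoters, changed by -0.71 (limma adjusted p = 0.0188), a call that ended without V2 replicate 1 or 3 or V3 replicate 1 or 3 (adjusted p up to 0.0749). Other members were spread more widely. RAB18, a dehydrin, had 9637, 4794 and 6044 in V2 and 121, 2211 and 1741 in V3, and with its wide range inside V3 it did not pass (-3.07, limma adjusted p = 0.107). ABI5, the bZIP factor of ABA responses in seeds, had a change of -1.41 that did not pass (limma adjusted p = 0.0729). RD29B had 1 left-out zero and did not pass either (-1.90, limma adjusted p = 0.0867). Summed over the list, FPKM was 2183 to 3081 in V2 and 614 to 1491 in V3.

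The upstream bud-dormancy genes had larger differences and wider spreads. HB21 (Aa_G483690) was listed at 0 counts in all 3 V3 libraries and at 33.8 and 24.1 in V2 replicates 1 and 2, with the zero of V2 replicate 3 left out because its FPKM was 1.85. In FPKM it stood at 3.92, 2.09 and 1.85 in V2 and at 0, 0.509 and 0 in V3, and its counts were at least 9.65-fold lower in V3 against a floor of 3 counts per library (limma adjusted p = 0.00554). Such bounds hold for the counts as listed, and the log2 difference of HB21 in FPKM was -2.25. It was the 1 called member among 6 tested, all of them lower in V3, with a median log2 change of -2.16. HB53 had 3864, 2401 and 2058 in V2 and 299, 1601 and 757 in V3. NCED3 had 2193, 1111 and 1046 in V2 and 98.4, 711 and 235 in V3. In both genes the zones did not overlap and V3 replicate 2 came closest to V2. Neither passed, at -1.90 (limma adjusted p = 0.0583) for HB53 and -2.42 (limma adjusted p = 0.0516) for NCED3. HB40 overlapped between zones (-0.20, limma adjusted p = 0.667). HIS1-3, a drought-inducible linker histone, did not pass at -2.49 (limma adjusted p = 0.0510). The dormancy-associated homologue DRMH1 had 8719 and 9160 in V2 and 875, 7134 and 5385 in V3 (-1.47, limma adjusted p = 0.328). Its direction turned to 2.91 when the zero of V2 replicate 3 was kept as deposited, where its FPKM is 1472. NAP, a senescence and ABA-linked NAC factor, had too few usable V3 libraries for a test. Its FPKM was 10.5, 7.37 and 5.11 in V2 and 0, 1.21 and 0.197 in V3.

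In the sugar starvation list, 1 of 4 tested genes was called. BCAT2, a branched-chain amino acid aminotransferase, had FPKM of 13.5, 8.57 and 9.70 in V2 and 0.0794, 2.32 and 0.849 in V3, a log2 difference of -3.07. Its counts were at 0 in V3 replicates 1 and 3 (limma adjusted p = 2.83e-05), and the zero of V3 replicate 2 was left out. That p-value therefore rests on V3 values without spread. In FPKM, with no library left out, the limma adjusted p was 0.00934. TPS11, a trehalose phosphate synthase-like gene, and BZIP1, a factor of the low-energy response, changed by -0.56 and -0.68 and did not pass (limma adjusted p = 0.0945 and 0.118). At 5 d both were called lower in V3, at -2.05 and -3.02.

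Genes of jasmonate signalling and turnover were lower in V3. Of 7 tested members of the jasmonate list 4 fell and 1 rose, with a median of -1.39. In a wider family gathered from the annotation text after values were seen, 9 of 22 fell and 1 rose (median -1.24). JAZ9 (Aa_G68580), a jasmonate repressor, had 1154, 1039 and 1498 normalised counts in V2 and 140, 399 and 231 in V3. The lowest V2 library was above the highest V3 library by a wide margin, and the change was -2.37 ± 0.33 (SE; limma adjusted p = 0.00289). JAZ6 (Aa_G199320) had 540, 414 and 755 in V2 and 162, 201 and 124 in V3, a change of -1.79 ± 0.27 (limma adjusted p = 0.00413). JAZ10 (Aa_G19470) had 1065, 858 and 1097 in V2 and 404, 529 and 359 in V3, a change of -1.23 ± 0.20 (limma adjusted p = 0.00621). These 3 calls held in every leave-out. MYC2, the factor that JAZ proteins repress, had 16149, 14324 and 23494 in V2 and 3859, 11139 and 7084 in V3, without overlap, and did not pass (-1.39, limma adjusted p = 0.0512).

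Enzymes at both ends of jasmonate metabolism were among the lower genes. AOC3 (Aa_G409710), an allene oxide cyclase of jasmonate synthesis, had 3064, 1972 and 3560 in V2 and 741, 1321 and 899 in V3 (-1.54, limma adjusted p = 0.0146). LOX4, a lipoxygenase that starts the pathway, had FPKM of 3.25, 4.00 and 10.2 in V2 and 0.330, 2.06 and 0.383 in V3, a log2 difference of -2.20. Its counts were at 0 in V3 replicates 1 and 3 (limma adjusted p = 3.21e-05), and the zero of V3 replicate 2 was left out, so no fold is given for them. In FPKM, with no library left out, the limma adjusted p was 0.0177. The inactivating side was lower too. CYP94B1 and CYP94B3, which oxidise the active hormone, changed by -3.34 and -3.20 (limma adjusted p = 0.0200 and 0.0239). ST2A, a sulfotransferase of hydroxyjasmonate, changed by -4.95 (limma adjusted p = 0.0235), with V2 values of 395, 65.3 and 45.3 against 2.05, 12.5 and 0 in V3. AIB, a bHLH factor that restrains jasmonate responses in A. thaliana, changed by -2.11 (limma adjusted p = 0.0235). JRG21, a jasmonate-regulated oxygenase, was listed at 0 in all V3 libraries and at 98.6, 43.2 and 37.4 in V2, and was at least 19.9-fold lower in V3 (limma adjusted p = 0.00657), with an FPKM difference of -2.21 on the log2 scale. The calls of AOC3, CYP94B1, CYP94B3, ST2A and AIB each ended without V2 replicate 1, with adjusted p up to 0.0844 over all leave-outs; AOC3, CYP94B1, CYP94B3 and AIB also ended without V2 replicate 3 and V3 replicate 3, ST2A without V3 replicates 1 and 3, and AOC3 and CYP94B3 without V3 replicate 1. AOS, allene oxide synthase, did not pass (-0.74, limma adjusted p = 0.139).

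LOX2, the plastid lipoxygenase of the wound response, was the 1 jasmonate gene called higher. It had 308, 396 and 334 in V2 and 2656 and 1004 in V3 replicates 2 and 3, with the zero of V3 replicate 1 left out (2.24, limma adjusted p = 0.0249). Its FPKM overlapped between zones, at 5.47, 6.16 and 6.88 in V2 and 2.78, 44.3 and 17.9 in V3. The call ended without V2 replicate 1 or 3 (adjusted p up to 0.0812), and the change was -1.31 with the zero as deposited.

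**Figure D3:**
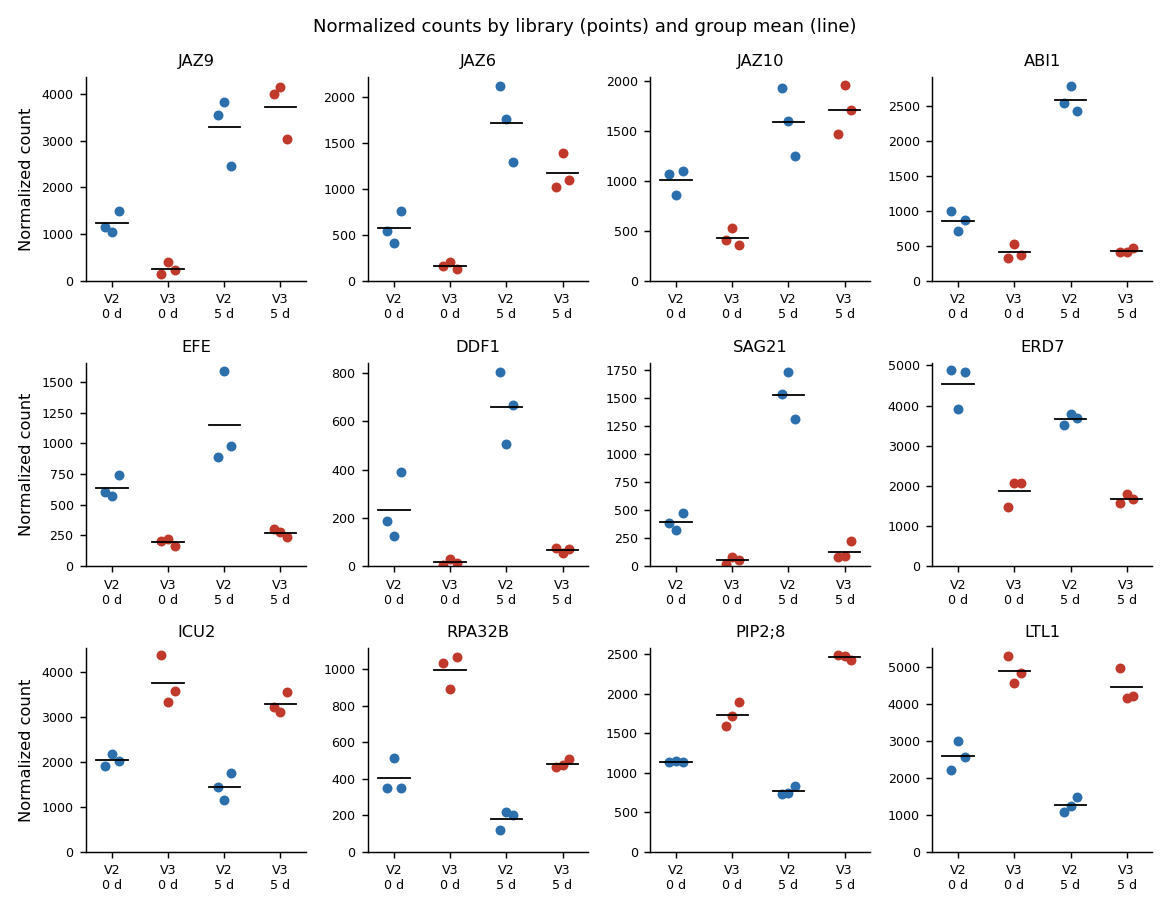
Normalised counts (vertical axis, linear, from 0) of 12 genes whose calls held in every leave-out, in V2 and V3 at 0 d and 5 d, 1 point per library (n = 3 per group) with the group mean as a line. At 0 d every V3 point lies below every V2 point in the top 2 lines of panels, from JAZ9 to ERD7, and above it in ICU2, RPA32B, PIP2;8 and LTL1, while JAZ9 and JAZ10 overlap at 5 d.

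Stress-related transcription factor families followed this direction to different degrees. Among all tested genes with a homologue 11.8% were called lower, with a median of -0.33. The AP2/ERF and NAC medians lay well below that, the MYB median a little below, the WRKY median at it and the bHLH median above it. Of 49 tested AP2/ERF genes 8 fell and 1 rose, and 47 had lower means in V3 (median -1.12, or -1.07 with genes at 0 throughout V3 set at the floor of 3 counts). DDF1 (Aa_G319730), a DREB-type factor induced by cold and salt, had 185, 126 and 391 in V2 and 6.15, 31.7 and 13.95 in V3. Even the highest V3 library was far below the lowest V2 library, and the change was -3.79 ± 0.55 (limma adjusted p = 0.00333). ERF15 changed by -2.10 (limma adjusted p = 0.0103). ESE2, with 1.83, 3.01 and 4.53 in V2 and 0 in V3, was called at a level near the floor of 3 counts. Of 13 NAC genes 4 fell (median -1.01), NAC3 among them with 247, 70.3 and 37.4 in V2 and 0, 17.3 and 0 in V3 (-5.06, limma adjusted p = 0.0261); that call ended without V2 replicate 1, V3 replicate 1 or V3 replicate 3 (adjusted p up to 0.0901). WRKY46 was the 1 called of 10 WRKY genes (-2.61, limma adjusted p = 0.0413), and its call held only without V3 replicate 2 (adjusted p up to 0.116). WRKY18 had a change of -2.02 that did not pass (limma adjusted p = 0.0848). Of 18 MYB genes 3 fell and 1 rose (median -0.49). MYB112, a factor linked to anthocyanin formation, was listed at 0 in V3 and at 97.7, 50.2 and 51.0 in V2, at least 22.1-fold lower in V3, with FPKM of 7.22, 4.26 and 4.13 against 0, 0.712 and 0 (limma adjusted p = 2.63e-06). Of 22 bHLH genes 4 fell (median -0.11).

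Of 12 LEA genes 4 fell and none rose (median -1.45). SAG21 (Aa_G99690), a LEA protein of oxidative stress that also marks senescing leaves, had 382, 319 and 479 in V2 and 19.5, 84.5 and 51.2 in V3. The zones were well apart, with a change of -3.11 ± 0.51 (limma adjusted p = 0.00806). LEA14 changed by -3.43 (limma adjusted p = 0.0422), and this call ended without any 1 of the V2 libraries or V3 replicate 3 (adjusted p up to 0.116). Among 9 tested cold-response genes 3 fell and none rose (median -1.0). ERD10, a dehydrin, had 23962, 17127 and 22917 in V2 and 3055, 10931 and 9199 in V3 (-1.65, limma adjusted p = 0.0446). GOLS3, a galactinol synthase, changed by -1.85 (limma adjusted p = 0.0396). Both calls ended without V2 replicate 1 or 3, ERD10 also without V2 replicate 2 or V3 replicate 3 and GOLS3 without V3 replicate 1 (adjusted p up to 0.119). ZAT10, a zinc finger factor, and BAM3, a beta-amylase, did not pass (-2.78 and -1.0, limma adjusted p = 0.0554 and 0.107). ERD7 (Aa_G249600), an early dehydration gene, had 4897, 3910 and 4833 in V2 and 1466, 2067 and 2076 in V3, with a change of -1.29 ± 0.14 (limma adjusted p = 0.000355) that held in every leave-out. Among 13 tested genes whose annotation mentions PP2C, a family that includes ABA receptors and does not include ABI1, none passed (median -0.50), and of 20 heat shock genes by annotation 1 fell (median -0.12). In the short heat shock list none of 3 was called (median 0.40).

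**Figure D4:**
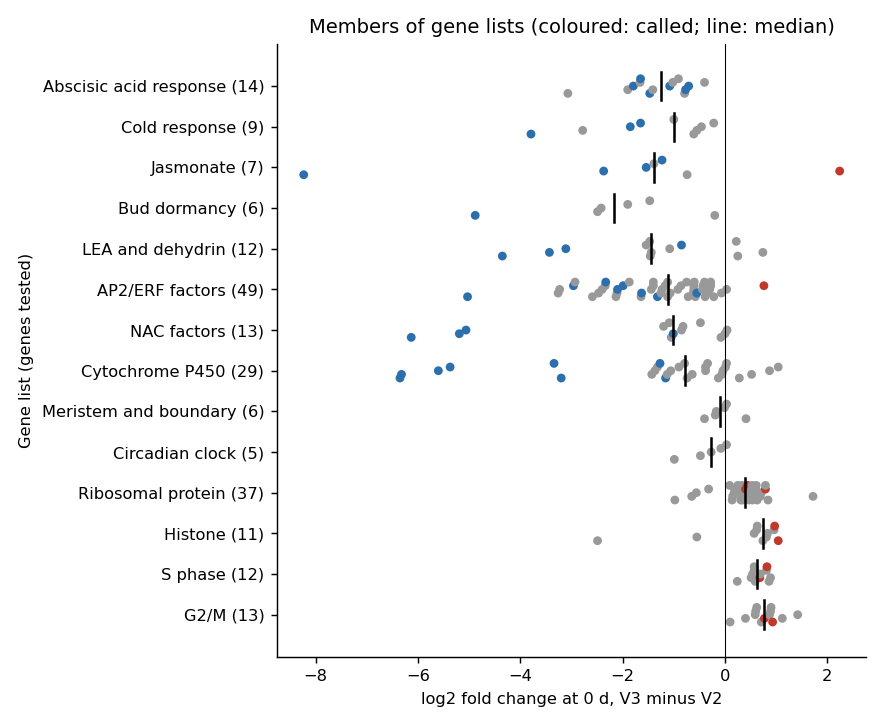
Log2 change of V3 over V2 at 0 d for each tested member of 14 gene lists and families (points; blue called lower, red called higher, grey not called), with the median of each as a line. The ABA response, jasmonate, LEA and AP2/ERF medians lie at or below -1.12, and the replication (S phase), mitosis (G2/M) and histone medians lie between 0.63 and 0.77.

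Single genes of ethylene synthesis, defence and detoxification were lower in V3. EFE (Aa_G493500), the ACC oxidase of the last step of ethylene synthesis, had 604, 573 and 744 in V2 and 209, 222 and 161 in V3. Every V3 library lay well below the V2 libraries, with a change of -1.70 ± 0.22 (limma adjusted p = 0.00175). ACS6, an enzyme of the step before, overlapped between zones (-0.73, limma adjusted p = 0.394). Of 29 tested cytochrome P450 genes 8 fell and none rose (median -0.79, or -0.74 with genes at 0 throughout V3 set at the floor of 3 counts). CYP71A23, CYP71B17 and CYP71B19 were each listed at 0 in every V3 library. Their counts were at least 28.3-fold, 13.5-fold and 27.2-fold lower, with FPKM differences of -1.52, -1.53 and -1.76 on the log2 scale. CYP71B17 and CYP71B19 carry adjacent gene numbers, and reads could be shared between such similar genes. Of 9 glutathione transferase genes 3 fell (median -0.79). The homologue of AT1G65820 (Aa_G686010), annotated as a microsomal glutathione transferase, had 1038, 851 and 803 in V2 and 294, 427 and 409 in V3 (-1.26, limma adjusted p = 0.00458), and this call held in every leave-out.

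SARD1, an activator of salicylic acid synthesis, had FPKM of 3.3, 3.32 and 5.98 in V2 and 0.720, 0.958 and 0.758 in V3, a log2 difference of -1.80, while its counts were at 0 throughout V3 (limma adjusted p = 2.31e-05). Not all genes linked to salicylic acid fell. EDS16 and UGT74F1 were called higher in V3, at 0.88 and 4.43 (limma adjusted p = 0.0172 and 0.0176). Their FPKM differences were 0.66 and 1.06 on the log2 scale, and each call held in 3 of the 6 leave-outs. GSTF7, a defence-induced glutathione transferase, had FPKM of 3.43, 4.55 and 8.81 in V2 and 0.138, 1.52 and 0.864 in V3, a log2 difference of -2.24. Its counts were at 0 in V3 replicates 1 and 3 (limma adjusted p = 5.69e-05), and the zero of V3 replicate 2 was left out. In FPKM, with no library left out, the limma adjusted p was 0.0125. GSTU4 changed by -4.12 (limma adjusted p = 0.0310), a call that ended without any 1 V2 library or V3 replicate 3 (adjusted p up to 0.0914). XTH18, a xyloglucan endotransglucosylase of the cell wall, was at 128, 59.2 and 96.3 in V2 and 0 in V3, and its FPKM difference was -2.47. It was the 1 called of 10 expansin and xyloglucan genes (median -0.14). Of 9 lipid transfer genes 2 fell (median -1.91), and of 4 flavonoid genes 1 fell (median -0.58). That gene was DFR, dihydroflavonol reductase of anthocyanin synthesis, with 118, 89.4 and 335 in V2 and 0, 19.2 and 0 in V3 (-5.82, limma adjusted p = 0.0184). Its call ended without V2 replicate 1 or 3 or V3 replicate 1 or 3 (adjusted p up to 0.0712). CHS, the first enzyme of the pathway, did not pass (-0.73, limma adjusted p = 0.138).

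Signalling and transport genes lower in V3 included OSCA1 (Aa_G320540), an osmosensing calcium channel, with 2703, 2653 and 3496 in V2 and 1713, 1833 and 1623 in V3 (-0.77 ± 0.10, limma adjusted p = 0.00179). CYS4, a cysteine protease inhibitor, had 4913, 3990 and 5161 in V2 and 2539, 2740 and 2765 in V3 (-0.80 ± 0.11, limma adjusted p = 0.00186). In both genes the V3 libraries lay close together, below all V2 libraries. S6K2, a kinase of the TOR growth pathway, had 2304, 2075 and 3331 in V2 and 750, 1021 and 984 in V3 (-1.47 ± 0.25, limma adjusted p = 0.0101). NPF2.10, a glucosinolate transporter, changed by -1.33 (limma adjusted p = 0.00225), ARGOS, a promoter of organ growth, by -1.77 (limma adjusted p = 0.00712), and AtIPCS1, an inositol phosphorylceramide synthase, by -1.87 (limma adjusted p = 0.00304). PSK4, a phytosulfokine peptide precursor, had 53.9, 15.1 and 26.1 in V2 and 0, 1.92 and 1.86 in V3 (-3.83, limma adjusted p = 0.00490), with FPKM just apart, at 2.17 in V2 replicate 2 and 2.11 in V3 replicate 2. The call of each of these 7 genes held in every leave-out. Receptor kinases moved in both directions, with 4 of 30 leucine-rich repeat genes higher and 3 lower (median -0.38). LRR XI-23 changed by -3.04 (limma adjusted p = 0.0255) and CEPR2, a receptor of CEP peptides, by -1.43 (limma adjusted p = 0.0184). Both calls ended without V2 replicate 1 or 3, and LRR XI-23 also without V3 replicate 3 (adjusted p up to 0.0901).

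Genes of DNA replication and mitosis were higher in V3 as groups, with few single calls. In the replication list 2 of 12 tested genes rose, and in the mitosis list 2 of 13, none fell, and every one of these 25 genes had a higher mean in V3. Their medians were 0.63 and 0.77, against -0.33 for all genes with a homologue. ICU2 (Aa_G482320), the catalytic subunit of DNA polymerase alpha, had 1907, 2177 and 2020 normalised counts in V2 and 4368, 3338 and 3588 in V3. No V3 library came near the V2 range, and the change was 0.88 ± 0.15 (SE; limma adjusted p = 0.00964). RPA32B (Aa_G111930), a subunit of the single-strand DNA binding protein RPA, had 350, 511 and 351 in V2 and 1032, 892 and 1067 in V3 (1.32 ± 0.23, limma adjusted p = 0.00978). Both calls held in every leave-out. MCM5 and MCM4, subunits of the replicative helicase, rose by 0.82 and 0.68 (limma adjusted p = 0.0249 and 0.0393). MCM7 overlapped between zones and CDT1A, a licensing factor, did not, and neither passed (0.89 and 0.86, limma adjusted p = 0.152 and 0.0700). CYCA1;1, a mitotic cyclin, rose by 0.77 (limma adjusted p = 0.0414). HINKEL, a kinesin needed for cell plate growth, rose by 0.93 (limma adjusted p = 0.0408).

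The MCM4, MCM5, CYCA1;1 and HINKEL calls all ended without V2 replicate 1 or V2 replicate 3. MCM4 and HINKEL ended also without V2 replicate 2, MCM5 and HINKEL without V3 replicate 1, and MCM4 and MCM5 without V3 replicate 3, with adjusted p up to 0.117. Summed FPKM of the replication list was 517, 575 and 532 in V2 and 1284, 735 and 851 in V3. That of the mitosis list was 398, 479 and 407 in V2 and 923, 594 and 643 in V3. V3 replicate 1 was the highest library in both sums and V3 replicate 2 the lowest of its zone.

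Most histone, kinesin and ribosomal protein genes also had higher means in V3. Of 11 genes annotated with histone 2 rose and none fell, 9 had higher means and the median was 0.74; the 2 with lower means, the linker histone HIS1-3 (-2.49) and GTE3 (-0.55), did not overlap between zones and did not pass. HTA6 (Aa_G652420), a histone H2A, had 3400, 3978 and 3094 in V2 and 9683, 5239 and 6266 in V3 (0.97, limma adjusted p = 0.0412), and this call ended without V2 replicate 1 or 3 or V3 replicate 1 or 3 (adjusted p up to 0.117). Of 6 kinesin genes 2 rose (median 0.77), and of 20 cyclin genes 1 rose (median 0.59). Of 37 ribosomal protein genes 3 rose and none fell, 33 had higher means in V3 and the median was 0.40. Summed ribosomal FPKM was 14986, 16181 and 15576 in V2 and 29513, 16972 and 19593 in V3, so the V3 libraries were all above V2 and differed widely among themselves. RPL21C and RPL4 rose by 0.44 and 0.40 (limma adjusted p = 0.0385 and 0.0468), calls that held only without V3 replicate 2 (adjusted p up to 0.126). The family was gathered by annotation text, and plastid and cytosolic ribosomal proteins were not separated. These values are therefore not a measure of cytosolic ribosomes alone.

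Single genes with other roles were also higher in V3. PIP2;8 (Aa_G70090), a plasma membrane aquaporin, had 1129, 1151 and 1135 in V2 and 1595, 1710 and 1890 in V3. The V2 libraries were nearly equal and the V3 libraries all higher, with a change of 0.60 ± 0.08 (limma adjusted p = 0.00127). KCS19, an enzyme of very-long-chain fatty acid synthesis, had 1447, 1622 and 1492 in V2 and 2521, 2183 and 2258 in V3 (0.61 ± 0.08, limma adjusted p = 0.00135). LTL1, a secreted GDSL lipase, had 2221, 2991 and 2561 in V2 and 5289, 4551 and 4835 in V3 (0.92 ± 0.14, limma adjusted p = 0.00458). FMO GS-OX1, which modifies aliphatic glucosinolates, had 74.9, 80.3 and 71.4 in V2 and 164, 158 and 203 in V3 (1.19 ± 0.18, limma adjusted p = 0.00549). CYTC-1, cytochrome c of the respiratory chain, rose by 0.62 (limma adjusted p = 0.00867) and RKL1, a receptor-like kinase, by 0.37 (limma adjusted p = 0.0102). These 6 calls held in every leave-out.

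Further genes rose with calls that depended on single libraries. CKX5, a cytokinin oxidase, had 99.5, 230 and 104 in V2 and 578, 319 and 460 in V3 (1.71, limma adjusted p = 0.0277). AGO6, an argonaute of RNA-directed DNA methylation, rose by 1.07 (limma adjusted p = 0.0252). SIP1;2, a small intracellular aquaporin, rose by 1.17 (limma adjusted p = 0.0309), SAUR53, a small auxin-responsive protein gene, by 1.27 (limma adjusted p = 0.0343), NAKR2, a heavy-metal-binding domain protein, by 1.03 (limma adjusted p = 0.0414) and iqd8, a calmodulin-binding protein, by 1.02 (limma adjusted p = 0.0384). All 6 calls ended without V2 replicate 1, V2 replicate 3 or V3 replicate 1, those of CKX5, SIP1;2, SAUR53, NAKR2 and iqd8 also without V3 replicate 3, and those of SAUR53 and NAKR2 also without V2 replicate 2. Adjusted p rose to at most 0.122.

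Flowering, clock and most hormone genes gave few calls at 0 d. SVP, a repressor of flowering, had 4225, 4001 and 4425 in V2 and 2354, 3537 and 2897 in V3, apart but not passing (-0.54, limma adjusted p = 0.0815). TFL1, which keeps meristems vegetative, overlapped between zones, with 2511, 3416 and 3144 in V2 and 3975, 3116 and 2870 in V3 (0.13, limma adjusted p = 0.659). TEM1 did not pass (-1.58, limma adjusted p = 0.0837). SMZ, an AP2-type repressor, was the 1 called of 5 repressors, with FPKM of 0.817, 0.996 and 2.51 in V2 and 0.318, 0.777 and 0.568 in V3, a log2 difference of -0.80; its counts were at 0 throughout V3 and the zero of V2 replicate 2 was left out (limma adjusted p = 0.00139). Of the 3 promoters of flowering none was called, SPL5 and SPL15 standing at 0.84 and 0.37 (limma adjusted p = 0.217 and 0.431). Of the 5 clock genes none was called; FKF1 and ELF4 stood at -0.99 and -0.48 (limma adjusted p = 0.0554 and 0.532). GA2OX2, which inactivates gibberellin, was the 1 called of 7 gibberellin genes. It had 6748 and 4735 in V2 and 606, 2983 and 1015 in V3 (-2.21, limma adjusted p = 0.0499), a call that ended without V2 replicate 3, V3 replicate 1 or V3 replicate 3 (adjusted p up to 0.111) and turned to 1.95 with the zero of V2 replicate 3 as deposited. GID1B, a gibberellin receptor, did not pass (-1.05, limma adjusted p = 0.127). Of 6 cytokinin genes CKX5 was called, and CKX1 had the opposite sign without passing (-1.48, limma adjusted p = 0.0532). Of 5 auxin genes GH3.1, an auxin-conjugating enzyme, was called lower (-4.59, limma adjusted p = 0.0229), a call that ended without V2 replicate 1 or 3 or V3 replicate 3 (adjusted p up to 0.0843). Among 47 genes with auxin in their annotation 8 fell and 2 rose (median -0.24), SAUR79 among them at -3.10 (limma adjusted p = 0.00665). None of the 6 meristem and boundary genes was called (median -0.09).

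Some of the largest count changes had no counterpart in FPKM. ATDAD1, a subunit of oligosaccharyltransferase, was listed at 0 counts in all V2 libraries and at 1456, 641 and 541 in V3, while its FPKM overlapped, at 0.152, 0.610 and 0.121 in V2 and 0, 0.432 and 0.474 in V3. RECQ4B, a DNA helicase, was at 0 in V2 and at 330 and 418 in V3 replicates 1 and 2, with FPKM of 0.866, 0.790 and 0.806 against 0.864, 1.1 and 0.943. PUM12, an RNA-binding protein, and KIS, a tubulin folding cofactor, likewise had FPKM that overlapped (differences of -0.27 and 0.03), as did TRFL7 (0.22), while PMT6, a polyol transporter, was opposite in FPKM (-0.46). For these 6 genes the counts and the FPKM do not give the same answer. EXO70A2, an exocyst subunit, was at 0 in V2 and at 235, 37.5 and 124 in V3, and its FPKM rose by 0.60.

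Among genes at 0 in every usable V3 library the FPKM more often showed the difference too. UMAMIT36, of an amino acid exporter family, had FPKM of 29.7, 4.81 and 6.20 in V2 and 0.0649, 1.72 and 0.0578 in V3. PLC1, a phospholipase C, had 13.5, 4.85 and 7.29 against 0.0568, 1.87 and 0.304, and BGLU10, a beta-glucosidase, had 5.25, 1.08 and 2.59 against 0.286, 1.05 and 0.715. Their log2 differences in FPKM were -3.53, -3.03 and -1.41. In counts all 3 were at 0 in V3 replicates 1 and 3, and the zero of V3 replicate 2, the library of highest FPKM in its zone, was left out. All 3 tested carbonic anhydrase genes were called lower, with a median of -5.92 in counts, -4.79 with zeros at the floor and -0.34 in FPKM. CA1 had FPKM of 0.228, 0.307 and 0.147 in V2 and 0, 0.112 and 0.128 in V3, and CA2 and BCA4 were also under 1 in every library. AAH, allantoate amidohydrolase, had counts of 21.9, 113 and 18.1 in V2 and 0 in V3 and an FPKM difference of -0.34. These genes were singled out after their values were seen.

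Senescing-leaf markers were lower in V3, while few markers of other tissues were called. Of 9 senescing-leaf markers 5 were matched and 4 tested, 2 fell and all 4 had lower means in V3 (median -1.27). Their summed FPKM was 260 to 427 in V2 and 77.1 to 148 in V3. SAG20, a senescence-associated gene, had 3573, 1841 and 2515 in V2 and 445, 1022 and 683 in V3 (-1.91, limma adjusted p = 0.0128), a call that ended without V2 replicate 1 (adjusted p = 0.0583). SAG21 also belongs to the LEA family above. Of 24 photosynthetic leaf markers 5 were matched and 4 tested, none was called (median 0.28), and their summed FPKM was 1194 to 1347 in V2 and 1538 to 1717 in V3. Of 18 vascular markers 5 were matched and tested. PP2-A1, a phloem lectin, was called lower (-4.64, limma adjusted p = 0.0385), a call that ended without V2 replicate 1 or 3 or V3 replicate 1 or 3 (adjusted p up to 0.117), and the summed FPKM overlapped, at 15.1 to 30.9 in V2 and 5.19 to 18.1 in V3. XCP2, a vessel protease, was at 0 counts in 5 of the 6 libraries, and KAT2, the 1 matched guard cell marker of 5, was at 0 in all 6. GL3, the 1 matched epidermis marker of 8, was not called (0.27). The part of leaf, vascular or other cells in the differences between zones was not tested.

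The V3 libraries stood at different distances from V2. Over 10177 genes with values in all 6 libraries the correlation of log2 counts was 0.943 to 0.949 among V2 libraries, 0.940 to 0.961 among V3 libraries and 0.849 to 0.9145 across zones, as a description over genes. V3 replicate 1 was the farthest from V2 and V3 replicate 2 the nearest. The same order held over 343 genes that were at least 4-fold lower in V3 at 5 d, in a fit of the 5 d libraries alone. Relative to the V2 mean at 0 d these genes averaged -2.09, -0.933 and -1.42 on the log2 scale in the V3 libraries, and 0.220, -0.292 and 0.0725 in the V2 libraries. Over 226 genes at least 4-fold higher at 5 d the V3 libraries averaged 0.193, 0.326 and 0.410. There the order did not hold, and V3 replicate 1 was the nearest to the V2 mean. The number of genes called moved with single libraries. It was 238 without V2 replicate 1, 753 without V2 replicate 2, 374 without V2 replicate 3, 433 without V3 replicate 1, 1830 without V3 replicate 2 and 438 without V3 replicate 3. Of the 543 calls that could be tested in all 6 leave-outs, 140 held in every one, 32 of them higher in V3 and 108 lower.

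More genes were called at 5 d than at 0 d, and part of the differences seen at 0 d were called again. At 5 d 6297 of 17295 genes were called (36.4%), 2832 higher in V3 (16.4%) and 3465 lower (20.0%). Of 206 genes called higher at 0 d and tested at 5 d, 138 were called higher again (67.0%), 5 were called lower and 63 were not called. Of 556 called lower at 0 d, 292 were called lower again (52.5%), 21 were called higher and 243 were not called. Many of those not called had a change of 0.0 at 5 d. Examples picked after their values were seen are Aa_G172340 and Aa_G310730, at -10.5 and -9.5 in counts at 0 d. Their FPKM difference at 0 d was 0 as well. The missing call of such genes at 5 d is not read as the loss of a zone difference. The harvests share no library, but 1 fit estimated the spread for both. A test of the difference between the times passed for 248 of these 762 genes, and for 1243 of all 16077 tested (7.73%). The 762 genes were chosen by their difference at 0 d, which that test subtracts. The shares therefore cannot be compared, and no excess of time-dependent genes is read from them.

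Some named genes differed between the times. JAZ9 and JAZ10 had changes of 0.20 and 0.12 at 5 d (limma adjusted p = 0.696 and 0.675), and for both the zone difference at 5 d minus that at 0 d passed, at 2.57 (limma adjusted p = 0.00810) and 1.35 (limma adjusted p = 0.0150). For JAZ6 it did not pass (1.24, limma adjusted p = 0.0697). ABI1 was lower by a larger amount at 5 d, at -2.59, and the difference between times passed (-1.51, limma adjusted p = 0.00544). RD22 stood at -0.96 at 5 d, and its difference between times did not pass (limma adjusted p = 0.297). TFL1, whose zones overlapped at 0 d, was at -2.65 at 5 d (limma adjusted p = 7.16e-06). ICU2 and RPA32B kept changes of 1.21 and 1.46, with no difference between times that passed (limma adjusted p = 0.387 and 0.826). PIP2;8 was at 1.69 at 5 d, more than at 0 d (limma adjusted p = 0.000235 for the difference).

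**Figure D5:**
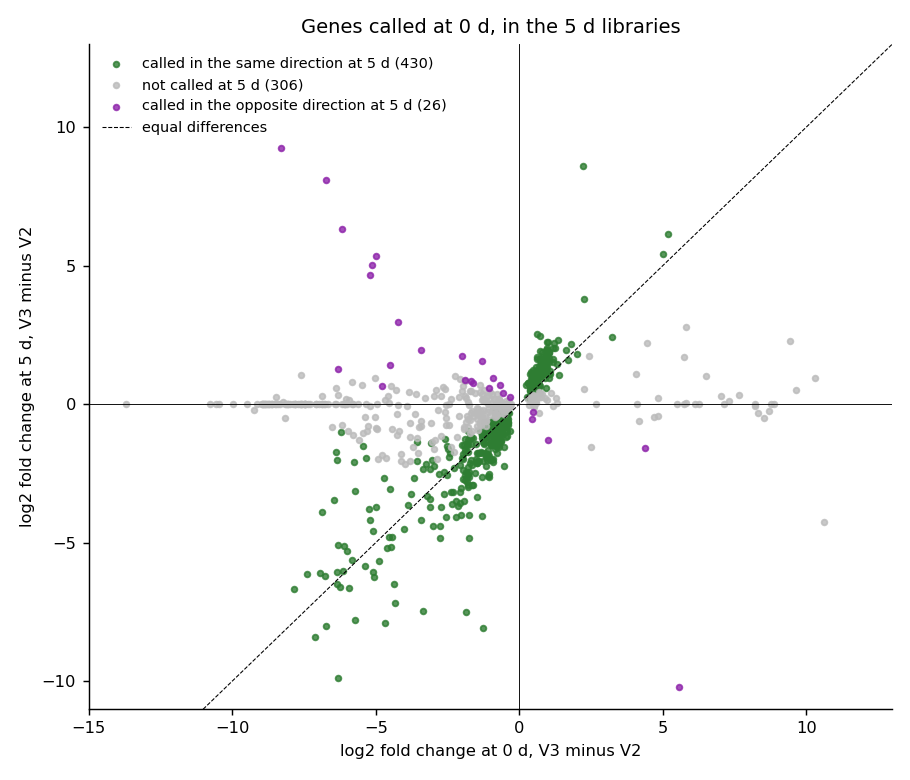
Log2 change of V3 over V2 at 5 d (vertical axis) against that at 0 d (horizontal axis) for the 762 genes called at 0 d and tested at 5 d, coloured by their call at 5 d. Of these, 430 were called in the same direction at both times and 26 in opposite directions.

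The authors' deposited table lists 1128 genes for the same comparison, 406 higher and 722 lower in V3. Of these, 565 were tested here, and 317 were called in the same direction, 46 higher and 271 lower, which is 28.1% of the listed genes and 38.4% of the 826 calls. None was called in the opposite direction. The authors' list holds 616 genes with at least 1 left-out zero, 318 of its 406 higher genes and 298 of its 722 lower genes. Of the genes in the authors' deposited table, 495 have a fold change beyond 10 on the log2 scale in either direction, and 105 of the 494 with FPKM had FPKM in the same direction without overlap. For the other 633 genes it was 501 of 631. NCED3, HB53 and HIS1-3, which vary widely among the V3 libraries, are listed there, at -2.06, -1.65 and -2.31 in the authors' deposited table, and did not pass here.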

How the data were processed

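RNA from buds was sequenced as 150 bp single reads on a HiSeq3000 from a directional kit, per the labels' protocols. HISAT2, StringTie, TopHat and DESeq2 are named in the submitters' processing notes, without versions; the genome build is not given in the sources used here. The authors deposited normalised counts (a signal scale: reads divided by a size factor per library) for 19722 genes, and FPKM, log2 fold changes and adjusted p-values for listed genes; the authors' p-values were not used. All values, within 0.05 of a whole number, came out as whole reads; library totals are from those. 1 row of the FPKM table with displaced cells was not used, and 0 columns belong to no sample. Whether reads were counted by strand is not stated, so overlapping and antisense genes cannot be told apart.

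Zeros were left out as described in the report (partner at 20 or more, or FPKM of 1 or more). The test was limma 3.58.1 (R 4.3.3) with an intensity trend on log2(normalised count + 1), 12 libraries in 1 fit, for genes averaging 10 or more with 2 or more usable libraries per compared group, Benjamini-Hochberg adjusted p under 0.05. FPKM was compared as log2(FPKM + 0.5). A fold against a zone at 0 was set against 3 counts per library and is a lower bound. edgeR 4.0.16 and DESeq2 1.42.0 were run on recovered reads as alternatives, on genes with no left-out zero (edgeR also with zeros as deposited). Scripts were tested on simulated data. Counting error alone is small at these totals; lower limits cover counting error only.

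The samples, gene lists and tests were chosen with earlier results of these data known. Genes named are, among called genes with a symbol, a mean of 50 and no left-out zero, the 10 of largest change in each direction; in each list the 3 called of smallest adjusted p and the 2 uncalled of largest change, of which only some are printed; the 5 of highest mean at 0 in one zone; and a fixed set of dormancy, ABA and flowering genes. Genes called in every leave-out with FPKM in the same direction, AOC3, LOX2, EDS16, UGT74F1, and the jasmonate, ethylene and carbonic anhydrase families were added after values were seen. A planned count of promoter motifs was not run, since no sequences were used here.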

Additional observations from a re-analysis of the deposited data

Results flagged for a closer look

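A difference between the harvests drew attention to 41 of the genes named in the report: the V3 over V2 change at 5 d minus that at 0 d passed in the limma fit of all 12 libraries. Values are that difference on the log2 scale, and a positive value means that V3 stood higher relative to V2 at 5 d than at 0 d. Over all 16077 genes tested, 7.73% passed. Many named genes were chosen by their difference at 0 d, which this value subtracts, so their share cannot be compared with that.

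The genes are grouped here after the values were seen. Some genes lower in V3 at 0 d had positive values. These were 2.57 for JAZ9, 1.35 for JAZ10, 8.31 for LOX4, 2.35 for ERF15 and 2.46 for ESE2. Further values were 4.65 for SARD1, 6.60 for GSTF7, 5.68 for XTH18, 4.28 for PSK4 and 4.89 for GH3.1. They include jasmonate, ethylene-factor and defence genes, and also a cell wall gene (XTH18), a peptide precursor (PSK4) and an auxin-conjugating enzyme (GH3.1). Counts of LOX4, ESE2, SARD1, GSTF7 and XTH18 were at 0 in every usable V3 library at 0 d. Some ABA and dormancy genes had negative values, at -1.51 for ABI1, -7.45 for RD29B, -2.64 for ABI5, -2.80 for HB53 and -4.50 for DRMH1. Some cold and low-energy genes did too, at -5.64 for GOLS3, -1.49 for TPS11 and -2.34 for BZIP1. So did OSCA1 at -0.99 and CYS4 at -0.65. Only genes that passed are listed, and RD22 of the ABA genes did not pass.

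Some replication, cyclin and ribosomal protein genes higher in V3 at 0 d had positive values. These were 1.25 for CDT1A, 1.09 for CYCA1;1, 0.59 for RPL21C and 0.75 for RPL4. ICU2 and RPA32B of the replication genes did not pass. Genes with other roles also had positive values, at 0.61 for KCS19, 0.90 for LTL1, 1.09 for PIP2;8, 1.02 for FMO GS-OX1 and 0.72 for RKL1. Some flowering and clock genes had negative values, at -0.92 for SVP, -2.78 for TFL1 and -3.98 for ELF4.

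For other genes with counts at 0 in one zone at 0 d, or with FPKM that does not follow the counts, the values were -9.12 for ATDAD1, -9.03 for RECQ4B, -5.76 for PUM12, 8.75 for PLC1, 6.08 for CA1, 5.00 for BCA4, 9.87 for AAH, -5.96 for PMT6 and -4.07 for TRFL7. Where a zone stands at 0, here and for the genes marked above, the size depends on the count added before the log.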

How the results depend on the processing

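The number of genes called at 0 d, 826 (218 higher and 608 lower in V3), moved with several choices. It was 271 (57 and 214) with the 6 libraries alone, 77 (22 and 55) with edgeR on genes with no left-out zero, 273 (65 lower) with edgeR on zeros as deposited and 1311 with FPKM; DESeq2 called 334 higher, and zeros as deposited gave 276 lower. At an unadjusted p under 0.05 edgeR had 2132 of 10540 genes and limma 4256 of 16555. Leaving out 1 library gave 238 to 1830 called, 73 to 638 higher and 165 to 1192 lower. All 804 calls testable with the 6 libraries alone, and all 547 testable by edgeR and DESeq2, kept their direction. Calls summed over the 50 gene lists and families, 117, became 73 with zeros as deposited, 33 with the 6 libraries alone, 13 and 15 with edgeR, and 37 to 213 with 1 library left out. Genes called at 5 d, 6297, became 3131 with zeros as deposited, and those shared with 0 d fell from 430 to 176. Alternatives on FPKM, the authors' list and the 5 d calls were added after seeing the data.

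Same-numbered libraries of the zones did not deviate together (correlations -0.129, -0.0816 and -0.0246), and the main fit did not pair them. With 3 libraries per zone these values cannot show whether same-numbered libraries come from the same plants. With the replicate block 456 genes were called (106 higher, 350 lower) and 64 list members. Among 88 of the called genes named here, 64 held under the block and 41 with the 6 libraries alone. With edgeR 16 held, with DESeq2 64 and with zeros as deposited 54. With 1 library left out HB40 ranged from -0.47 to 0.02 and TFL1 from -0.00 to 0.23, changing sign. Directions turned with zeros as deposited for DRMH1 (2.91), LOX2 (-1.31) and GA2OX2 (1.95), and in FPKM for PUM12 (-0.27), KIS (0.03) and PMT6 (-0.46). Beyond the zeros themselves the cause was not tested. The total of reads recovered from the deposited counts was lowest in V2 replicate 3. That total lacks the reads of genes whose zeros were left out, so it is not a measure of sequencing depth alone.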

Other observations

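Of 32 tested pectin genes 4 rose and 5 fell (median -0.54), of 19 sugar and amino acid transporters 1 rose and 5 fell (median -0.57) and of 27 calcium-signalling genes 1 rose and 2 fell (median -0.64). The homologue of AT4G21820 (Aa_G213280), in the last family by its annotation, had 1113, 1356 and 1397 normalised counts in V2 and 2790, 2110 and 2375 in V3, without overlap (0.91, limma adjusted p = 0.00821). Of 12 F-box genes 2 fell (median -0.54), and of 7 genes matched to peroxidase by annotation text alone 1 fell (median -0.10). None of 15 arabinogalactan genes (median -0.50) or 5 pentatricopeptide genes (median -0.70) was called. The called gene of the peroxidase match (Aa_G33540), the homologue of AT3G61770, stood lower in V3 by counts (-2.35). Its FPKM overlapped, at 16.4 to 17.0 in V2 and 16.1 to 25.0 in V3.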
